A study of Mus musculus with 6 samples.

Results

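Of 27179 gene numbers counted in activated mouse CD8+ T cells, 67 made up a set of genes that were well covered without butyrate and cut at least 3-fold with it. A gene was a member if its raw counts summed to 150 or more over the 3 control libraries and its raw counts over the 3 butyrate libraries summed to at most 1/3 of that. The 2 sums are the values that chose the members, so the size and direction of every member's difference are given as a description and support nothing by themselves. Among the 9373 genes with a control sum of 150 or more, 67 met the limit, and 81 had a butyrate sum at least 3 times the control sum. Names came from the mouse RefSeq gene table for 63 members and from GENCODE for A430078G23Rik. The gene numbers 100504266, 100861953 and 240921 matched no entry by number and are left without a name or role.

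The cells came from the spleens of gBT-I mice, a strain whose CD8+ T cells carry a transgenic receptor for the gB498-505 peptide of herpes simplex virus. All 6 cultures held total spleen cells, were activated with that peptide and lipopolysaccharide, received IL-2 with each split and were harvested on day 6. The 3 butyrate cultures also received butyrate from day 3, at a dose that the labels do not give, and the 3 control cultures did not. Age, sex and the number of mice are not given, nor do the labels tie the replicates to separate mice or cultures. A p-value here therefore reflects no more than how these libraries differ among themselves, and some of that may be technical.

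Butyrate is a short-chain fatty acid made by gut bacteria, and it inhibits histone deacetylases, enzymes that remove acetyl groups from histones. Interferons, released on infection, switch on a broad set of antiviral genes through promoter elements bound by factors of the IRF and STAT families. A resting T cell is held out of division by brakes such as inhibitors of cyclin-dependent kinases, and an activated one divides quickly and expresses a programme of mitotic genes. Genes of all 3 of these kinds were among the 67.

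By what the genes are known to do, 14 members were interferon-inducible, 7 belong to quiescence or restrain the cell cycle and 4 act in mitosis. Another 13 encode surface receptors, ligands or signalling proteins, 5 act in chromatin and transcription, and 9 in metabolism, transport or proteolysis. Of the rest, 8 are other coding genes, 3 are noncoding and 4 have no RefSeq entry. This grouping was made by hand after the names were seen.

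Some members shared features that the choice did not use, namely a place in the genome and a stretch of promoter sequence. Ifi214, Ifi213, Ifi208, Mndal and Ifi203, all of the Ifi200 family of interferon-inducible DNA-binding proteins, lie within 1 locus of chromosome 1. For each of the 5, a promoter entry taken from RefSeq (GRCm38.p6, the assembly behind mm10) holds the core of the interferon-stimulated response element. That core is GAAA, any 2 bases (NN) and GAAA again, on either strand. These 5 entries share the exact letters GAAATCGAAA. They are shown beside 2 genes of the same locus that are no members, namely Ifi211, whose letters are GAAATTGAAA and thus also hold the core, and Ifi209, whose promoter entry does not hold it. The core thus does not set the members apart. Of 6 other genes on the Ifi200 list with a promoter entry, 4 hold the core (Ifi205, Ifi206, Ifi207 and Ifi211). Of these, Ifi206 and Ifi207 also hold the exact letters. Ifi205 and Ifi207 had 3 counts each over all 6 libraries and were not tested, and no counts were matched to Ifi206. RefSeq gives EG240921 as a synonym of Ifi206, so the unnamed member 240921 may be an older number of that gene. Whether Ifi206 is itself a member is therefore open. Capitals mark the core or the 10 letters in its place, and each line runs 5′ to 3′ on the gene's strand.
Ifi214 (chr1:173535987-173536076, minus strand): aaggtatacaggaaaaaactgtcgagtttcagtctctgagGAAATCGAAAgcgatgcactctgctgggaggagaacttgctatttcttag
Ifi213 (chr1:173599296-173599385, minus strand): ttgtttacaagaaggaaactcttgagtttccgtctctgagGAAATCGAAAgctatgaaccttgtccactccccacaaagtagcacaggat
Ifi208 (chr1:173673567-173673656, plus strand): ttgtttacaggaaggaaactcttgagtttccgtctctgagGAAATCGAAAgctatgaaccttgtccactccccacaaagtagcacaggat
Mndal (chr1:173880174-173880263, minus strand): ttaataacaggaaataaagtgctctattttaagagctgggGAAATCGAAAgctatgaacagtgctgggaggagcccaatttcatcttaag
Ifi203 (chr1:173942478-173942567, minus strand): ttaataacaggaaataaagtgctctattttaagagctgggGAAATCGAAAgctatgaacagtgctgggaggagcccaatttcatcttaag
Ifi209 (chr1:173630740-173630829, plus strand, no member): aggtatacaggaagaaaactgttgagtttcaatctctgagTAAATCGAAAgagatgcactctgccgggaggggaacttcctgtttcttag
Ifi211 (chr1:173913034-173913123, minus strand, no member): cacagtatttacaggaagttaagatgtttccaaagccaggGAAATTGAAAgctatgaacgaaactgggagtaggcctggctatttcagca
Calhm6 (chr10:34127987-34128076, minus strand): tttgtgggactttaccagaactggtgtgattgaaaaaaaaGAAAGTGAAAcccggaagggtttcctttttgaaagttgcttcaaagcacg

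In the entries shown, the core begins at position -79 from the start site in Ifi214, -73 in Ifi213, -58 in Ifi208, -36 in Mndal and -35 in Ifi203. Another promoter entry of Mndal holds a different core, on the opposite strand at -54, and another entry of Ifi203 holds no core. The 90 bases shown were compared position by position from the 10 capitals, with no gaps, so a gained or lost base lowers the match. Mndal and Ifi203 were 100% identical and Ifi213 and Ifi208 98.9% identical. Ifi214 matched the other 4 members at 53.3% to 58.9% of positions and the non-member Ifi209 at 80.0%. That core, searched on both strands, was present in 3.99% of the promoters of 27025 genes in the table, in entries of the same length. Outside the locus it was found in the promoters of 2 more members, Calhm6 (shown above) and Trim12a, so that 7 of the 11 interferon-inducible members with an entry held it and 4 did not. The GAS element (TTCNNNGAA, the same on both strands), another motif of interferon signalling, was found in 0 of the 45 members with an entry. It stood in 8.35% of genes with a control sum of 150 or more and in 9.55% of the table, and nothing is read from that difference. Those 45 of the 67 members are too few for a statement on motifs or CpG content over the whole set, so that check is void. A match describes letters only and is no evidence of a bound factor.

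The exact letters GAAATCGAAA, looked up after the 5 promoters had been seen, stood in the promoters of 16 genes, or 0.0592% of the table. Of these 16, 10 passed the filter on low counts, namely the 5 members and 5 other genes. Among the 5 others, edgeR's test called Ddx58, which encodes the RNA sensor RIG-I, lower (44.5 ± 3.07 CPM with butyrate and 81.3 ± 11.4 CPM in control, log2 fold change -0.87, adjusted p = 0.000533). Parp11 was lower too, by a log2 fold change of -0.76 (adjusted p = 0.00134), as was Pnrc1 (log2 fold change -0.53, adjusted p = 0.00964). The kinase gene Ripk1 was not called at 113 ± 9.10 CPM with butyrate and 132 ± 2.36 CPM in control (adjusted p = 0.0506), and it was called lower when replicate numbers were treated as pairs (adjusted p = 0.0294). Serpinb6a was not called (43.6 ± 11.7 and 47.4 ± 4.30 CPM, adjusted p = 0.603). The letters thus stood in promoters of called and uncalled genes.

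CPM here are counts scaled to a common library total, with the TMM method, means are given ± SD with n = 3, and a log2 fold change is butyrate over control. Library totals ran from 5383380 to 6244350 counts. Of 11740 genes that passed the filter, edgeR's quasi-likelihood test called 22.5% lower and 23.5% higher at an adjusted p under 0.05, 45.9% in all. All 67 members passed the filter and were called lower, as the choice made nearly certain, and nothing is read from that count. Every butyrate library lay below every control library for 65 of the 67, with Atp5md and Csf1 as the exceptions. That was so for 28.2% of all genes tested and, by raw counts, for 33.2% of the genes with a control sum of 150 or more. In bulk samples, fewer cells of a type and less RNA per cell cannot be told apart.

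How much was left differed widely between members. The butyrate sum was 27.0% of the control sum at the median, and it ranged between 4.10% for Ly6c1 and 33.2% for Aspm. It was at most 1/4 of the control sum for 28 members, at most 1/5 for 13 and at most 1/10 for 4. Over all genes with a control sum of 150 or more the median ratio was 0.926. The median log2 fold change of the members was -1.85 (-4.58 to -1.55), beside 0.00 for all genes tested. The members were not unusually abundant: their control sums ran from 158 to 6753 with a median of 780, against a median of 922 for all genes at or above the limit, and 27 of them reached 1000. With butyrate, 40 members still had a sum of 150 or more. Together they took 0.158%, 0.135% and 0.119% of the counts in the butyrate libraries, against 0.551%, 0.480% and 0.480% in the control libraries.

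**Figure D1:**
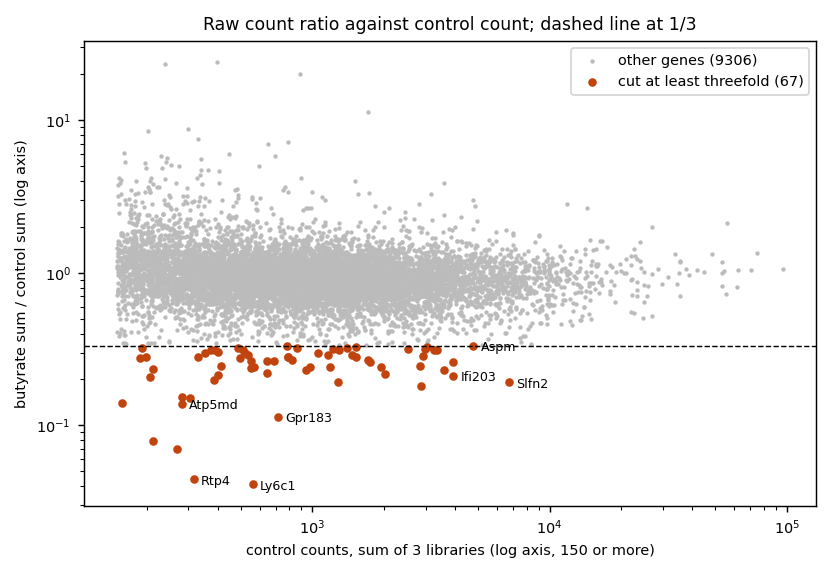
Ratio of the butyrate to the control count sum (log axis) against the control sum over 3 libraries (log axis) for the 9373 genes with a control sum of 150 or more. The 67 members lie on or below the dashed line at 1/3, and Ly6c1 and Rtp4 have the lowest ratios, 0.041 and 0.0443.

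Close to the limit, the ratio was 0.327 for Cdkn2c, 0.330 for Tespa1 and 0.332 for Aspm inside it, and 0.336 for Epc1, 0.338 for Arhgap27os3 and 0.338 for Dok2 just outside. The members with the smallest control sums were Samd3 (158 counts), Ccdc125 (188) and Cbfa2t3 (191). Among genes with a ratio of at most 1/3, Ifit1 (136 counts), Thrb (139) and E130307A14Rik (146) fell just short of the required control sum. Ifit1 and the related antiviral gene Ifit3 thus miss the set for their level and not for their ratio. Ifit3 stood at 0.423 ± 0.115 CPM with butyrate and 5.42 ± 1.45 CPM in control, a log2 fold change of -3.61 (edgeR adjusted p = 0.000197).

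The interferon-inducible members were left with 4.43% to 29.1% of their control sums, with a median of 24.3%. Summed over the 14 genes, the level was 264, 232 and 190 CPM in the butyrate libraries, against 1067, 916 and 886 CPM in the control libraries. The groups are far apart, and the first replicate is the highest of each. Rtp4, a chaperone of G protein-coupled receptors that interferon induces, had 6, 5 and 3 counts with butyrate and 122, 76 and 118 in control. It was near the limit of detection in all 3 butyrate libraries. Rtp4 averaged 0.841 ± 0.278 CPM with butyrate and 18.4 ± 3.99 CPM in control, a log2 fold change of -4.42 (SE 0.302).

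Among the 5 Ifi200 members, Ifi203 was the most abundant, with 354, 309 and 172 counts with butyrate, against 1382, 1254 and 1298 in control (50.1 ± 17.0 and 231 ± 19.2 CPM, log2 fold change -2.20, SE 0.214). Its control libraries were close together, and the butyrate library of replicate 3 was the lowest. Mndal had 246, 249 and 196 counts with butyrate and 989, 1007 and 835 in control. Ifi208 had 197, 155 and 89 with butyrate, against 868, 565 and 588 in control. For both genes, the control count was more than 3 times the butyrate count of the same replicate number. Ifi214 had 12, 20 and 14 counts with butyrate and 128, 86 and 91 in control. Ifi213 had 32, 29 and 16 with butyrate and 182, 105 and 99 in control. In none of the 5 did a butyrate library reach the lowest control library.

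The locus was not lower as a whole. It spans 173521311 to 174031755 on chromosome 1, and the 5 members lie there among other genes that moved in both directions. Ifi209, between Ifi213 and Ifi208, was lower but short of the 3-fold limit, at 122 ± 35.8 CPM with butyrate and 323 ± 96.9 CPM in control (log2 fold change -1.41, edgeR adjusted p = 0.00192). Ifi211, which lies between Mndal and Ifi203, was higher, with 22, 15 and 11 counts with butyrate, against 3, 0 and 4 in control (log2 fold change 2.76, adjusted p = 0.00586). Ifi204 was also called higher, with 65, 44 and 36 counts with butyrate, against 35, 9 and 10 in control (log2 fold change 1.45, adjusted p = 0.0355). That call was lost without butyrate replicate 1 (log2 fold change 1.16, adjusted p = 0.111) or 2 (1.55, 0.0656), or without control replicate 2 (1.16, 0.109) or 3 (1.12, 0.101). Family members are alike in sequence and no source used here says how shared reads were counted, which leaves their split between members uncertain.

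**Figure D2:**
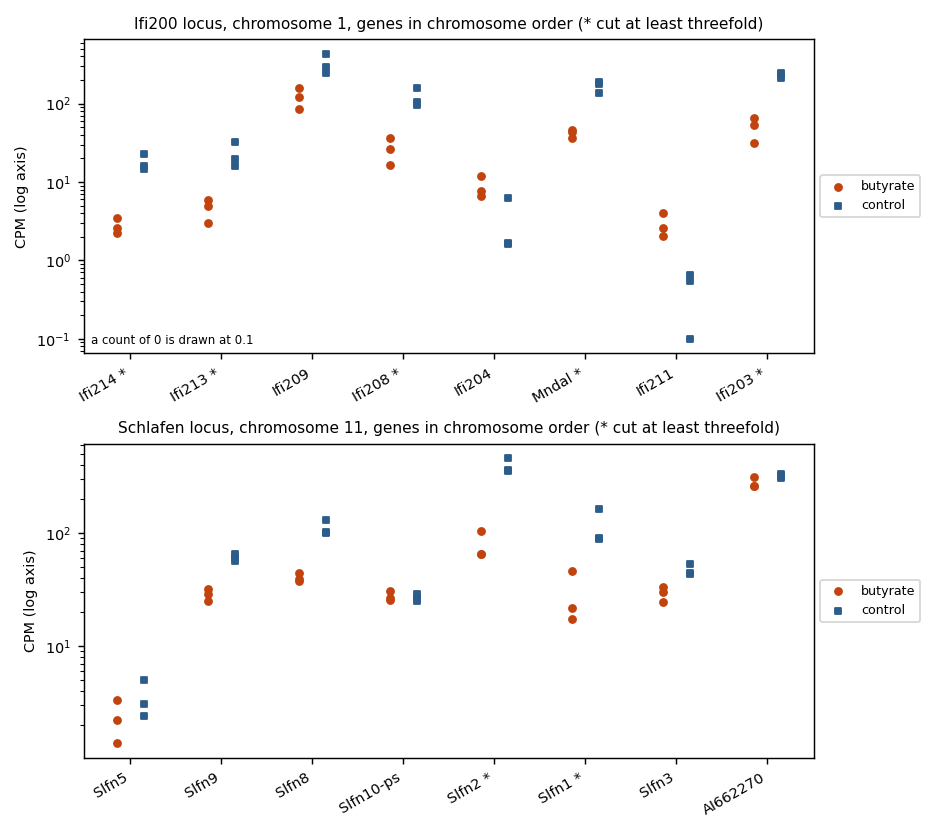
Level in each library (CPM, log axis) of the genes with at least 15 counts in all at the Ifi200 locus (upper panel) and the Schlafen locus (lower panel), in chromosome order, with butyrate left of control. Asterisks mark the members, whose butyrate libraries all lie below their control libraries, while Ifi204 and Ifi211 average higher with butyrate.

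The remaining interferon-inducible members are scattered over other chromosomes. Ifi27l2a, on chromosome 12, had 70, 90 and 85 counts with butyrate and 291, 299 and 692 in control, so 1 control library stood well above the other 2. Irf7, the transcription factor that drives type I interferon production, had 70, 59 and 53 counts with butyrate, against 291, 148 and 251 in control (log2 fold change -1.87, SE 0.239). Xaf1, which binds the apoptosis inhibitor XIAP, had 37, 32 and 31 counts with butyrate and 166, 126 and 119 in control. Each of these kept its groups apart. Iigp1, an interferon-induced GTPase that attacks vacuoles of intracellular parasites, had 111, 167 and 149 counts with butyrate and 549, 460 and 458 in control. Parp12, an ADP-ribosyltransferase, had 18, 16 and 22 counts with butyrate and 70, 58 and 71 in control. Uba7, the enzyme that activates the ubiquitin-like protein ISG15, Calhm6 and Trim12a were left with 28.1%, 27.0% and 24.3% of their control sums.

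Other interferon-stimulated genes moved in both directions. Counts of called genes on this and the later lists are to be read beside the shares over all genes tested, 22.5% lower and 23.5% higher. Of 39 tested on a list of such genes, 4 were members (Rtp4, Irf7, Xaf1 and Ifi27l2a), and of the other 35, 19 were lower, 7 higher and 9 not called. The median log2 fold change of these 35 was -0.60, beside 0.00 for all genes tested. Samd9l was lower at 173 ± 55.1 CPM with butyrate and 488 ± 55.4 CPM in control (log2 fold change -1.50, edgeR adjusted p = 0.000521). Oas3, an antiviral oligoadenylate synthetase, was lower by a log2 fold change of -1.20 (adjusted p = 0.000115). Irf9, a DNA-binding factor of interferon signalling, was lower at 50.5 ± 8.80 CPM with butyrate and 101 ± 13.01 CPM in control (adjusted p = 0.0006). Isg15, a ubiquitin-like protein, was not called (9.20 ± 1.58 CPM with butyrate and 10.9 ± 2.42 CPM in control, adjusted p = 0.365). Phf11a was higher, at 15.6 ± 0.631 CPM with butyrate and 4.66 ± 1.98 CPM in control (log2 fold change 1.73, adjusted p = 0.0009). Without butyrate replicate 3 or control replicate 2, 4 of the list were called higher in place of 7. Of 17 guanylate-binding protein and IRG genes tested, Iigp1 was the 1 member, and 5 of the other 16 were lower and 6 higher. Gbp4 and Gbp5 were higher, by log2 fold changes of 0.98 (adjusted p = 0.000185) and 1.29 (adjusted p = 0.000236).

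Genes of quiescence and brakes on the cell cycle included the most abundant member. Slfn2, a Schlafen gene required in mice to keep T cells quiescent, had 565, 381 and 352 counts with butyrate, against 2564, 1981 and 2208 in control. It averaged 78.3 ± 22.6 CPM with butyrate and 396 ± 57.2 CPM in control, a log2 fold change of -2.34 (SE 0.193). The first replicate was the highest in both groups. Slfn1, its neighbour on chromosome 11, had 250, 127 and 95 counts with butyrate and 906, 479 and 563 in control. The first library was again the highest of each group. In the same locus Slfn8 was lower at 40.6 ± 3.75 CPM with butyrate and 112 ± 16.5 CPM in control (log2 fold change -1.46, edgeR adjusted p = 6.76e-05), Slfn9 by a log2 fold change of -1.10 (adjusted p = 0.000147) and Slfn3 by -0.67 (adjusted p = 0.00422). Slfn5 was not called (2.31 ± 0.978 and 3.50 ± 1.36 CPM, adjusted p = 0.235). Of 7 Schlafen genes tested, 5 were lower and 0 higher.

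Both inhibitors of cyclin-dependent kinases in the set lay near the limit. Cdkn1b, which encodes p27, had 299, 282 and 224 counts with butyrate and 902, 735 and 900 in control. Cdkn2c, which encodes p18, had 160, 203 and 135 counts with butyrate, against 492, 507 and 522 in control. The groups are well apart in both, and the control libraries of Cdkn2c differ little. Cables1, a cyclin-dependent kinase-binding protein that restrains growth, Mxd4, an antagonist of MYC, and Pik3ip1, an inhibitor of PI3 kinase, were left with 21.5%, 31.1% and 32.4% of their control sums. With library-scaled counts in place of raw counts, Cdkn2c and Pik3ip1 lay just outside the limit, as did Aspm, Cd27 and Tespa1.

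The mitotic members sat at the other end of the cell cycle. Pimreg, a mitotic regulator that binds the clathrin assembly protein CALM, had 328, 267 and 227 counts with butyrate, against 1329, 1007 and 1253 in control (49.5 ± 9.86 and 210 ± 26.8 CPM, log2 fold change -2.08, SE 0.15). Cdc20, the activator of the anaphase-promoting complex, had 341, 393 and 323 counts with butyrate and 1029, 1023 and 1316 in control. Aspm, a protein of the spindle poles, had 591, 585 and 408 counts with butyrate, against 1552, 1487 and 1731 in control. Aspm was the most even of the 67 members in control, with a coefficient of variation (the SD as a percentage of the mean) of 0.925%, against 18.5% with butyrate. Depdc1b was left with 24.3% of its control sum.

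Mitotic genes outside the set were mostly lower too. Of 56 genes tested on a mitosis list, 3 were members (Pimreg, Cdc20 and Aspm). Of the other 53, 49 were lower, 0 higher and 4 not called, with a median log2 fold change of -0.84. The kinase gene Plk1 was lower at 99.0 ± 17.1 CPM with butyrate and 238 ± 12.3 CPM in control (log2 fold change -1.27, edgeR adjusted p = 0.00012). Of 42 replication genes tested, 9 were lower and 7 higher (4 higher without butyrate replicate 2), and none was a member. Over all genes tested the shares were 22.5% lower and 23.5% higher.

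Surface molecules held the largest reduction of all. Ly6c1, a glycolipid-anchored protein of memory and effector T cells, had 10, 9 and 4 counts with butyrate, against 252, 255 and 54 in control. The control library of replicate 3 was under 1/4 of the other 2, yet more than 5 times the highest butyrate library. Ly6c1 averaged 1.38 ± 0.574 CPM with butyrate and 33.8 ± 21.7 CPM in control (log2 fold change -4.58, SE 0.734). Its close paralog Ly6c2, which was far more abundant, was lower by a log2 fold change of -0.99, at 398 ± 71.3 CPM with butyrate and 790 ± 29.3 CPM in control (edgeR adjusted p = 0.000387). Reads that fit both cannot be placed from the files. Of 6 Ly6 genes tested, 3 were lower and 0 higher, though upper quartile scaling called 2 higher, and total-count scaling, no filter, the replicate pairing, DESeq2, limma voom and the fits without butyrate replicate 1 or control replicate 2 called 1.

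Gpr183, which senses oxysterols and positions lymphocytes within lymphoid tissue, had 41, 26 and 15 counts with butyrate, against 184, 230 and 306 in control. The lowest butyrate and the highest control library carry the same replicate number, and the groups are far apart. Gpr183 averaged 4.94 ± 2.44 CPM with butyrate and 41.8 ± 8.29 CPM in control, a log2 fold change of -3.08 (SE 0.282). It lies inside Ubac2, a gene that was higher with butyrate by a log2 fold change of 0.74 (edgeR adjusted p = 0.000534). Gpr171, a G protein-coupled receptor whose gene overlaps Med12l, had 342, 237 and 440 counts with butyrate and 1110, 1185 and 1606 in control. Of 25 migration and homing genes tested, Gpr183 was the 1 member, and of the other 24, 8 were lower and 4 higher.

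Cd27, a costimulatory receptor of the TNF receptor family, had 415, 320 and 254 counts with butyrate, against 1171, 896 and 976 in control (59.6 ± 15.4 and 178 ± 28.3 CPM). It was the 1 member among 35 costimulatory and TNF family genes tested, of which 8 of the other 34 were lower and 13 higher. Over all genes tested, 22.5% were lower and 23.5% higher, so the lower share of that list is near the background. Cd27 was also the 1 member on a list of 29 tested naive and memory T cell genes, where 8 of the other 28 were lower and 7 higher. Without butyrate replicate 2 that list had 5 lower genes in place of 9, and without control replicate 3 it had 4 higher in place of 7. Arhgef18, a guanine nucleotide exchange factor, had 369, 381 and 270 counts with butyrate and 1148, 1061 and 1046 in control. The groups of both genes are well separated.

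Tespa1, a signalling protein of thymocytes, had 116, 61 and 80 counts with butyrate, against 291, 221 and 268 in control. It was the 1 member among 40 T cell receptor signalling genes tested, of which 20 of the other 39 were lower and 3 higher. Trbj2-1, a joining segment of the receptor's beta chain, was left with 29.7% of its control sum. Of its neighbours, the segment Trbj2-2 was lower by a log2 fold change of -1.35 (edgeR adjusted p = 0.0029) and the constant segment Trbc1 by -1.29 (adjusted p = 0.000126). The constant segment Trbc2 was not called, at 1828 ± 206 CPM with butyrate and 1674 ± 106 CPM in control (adjusted p = 0.357). H2-T24, a class I molecule outside the classical group, had 45, 31 and 41 counts with butyrate and 153, 107 and 115 in control. Of the other 20 tested class I and peptide loading genes, 7 were lower and 3 higher. With H2-T24 counted, 8 of the 21 were lower, and 5 with upper quartile scaling, 4 without butyrate replicate 2 or 3 and 5 without control replicate 1. Higher genes on that list numbered 6 with the replicate pairing and 1 without control replicate 2.

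Csf1, the growth factor of macrophages, was singled out after its values were seen, because its groups overlapped. It had 67, 27 and 60 counts with butyrate, against 315, 65 and 154 in control. The highest butyrate library exceeded the lowest control library, and 1 control library stood far above the other 2. Its log2 fold change was -1.74 (SE 0.541) with all libraries and -0.99 without control replicate 1. Csf1 was not called lower in that fit (edgeR adjusted p = 0.0851), nor without butyrate replicate 2 (0.0948) or 3 (0.0539), nor by DESeq2 (0.0502) or limma voom (0.0675). Of the rest of the group, the neuropeptide gene Qrfp, Fgf13, the exchange factor gene Arhgef39 and the ubiquitin ligase gene Neurl1b were left with 23.6%, 23.8%, 28.0% and 29.1% of their control sums.

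All 5 chromatin and transcription members lay in the shallower range, at 29.7% to 32.1% of their control sums. Brpf3, a scaffold of histone acetyltransferase complexes, had 135, 145 and 121 counts with butyrate, against 456, 400 and 436 in control (24.1 ± 1.49 and 75.7 ± 5.82 CPM, log2 fold change -1.65, SE 0.101). Both groups were tight. Of 29 histone acetyltransferase and bromodomain genes tested, Brpf3 was the 1 member, and of the other 28, 21 were lower and 0 higher, though upper quartile scaling called 1 higher. Kat2b and Crebbp, which encode acetyltransferases, were lower by log2 fold changes of -1.33 (edgeR adjusted p = 9.95e-05) and -1.30 (adjusted p = 0.000101). Cbfa2t3, a corepressor of the ETO family, had 27, 12 and 22 counts with butyrate and 73, 70 and 48 in control. Aff3, the Groucho corepressor gene Tle4 and the Polycomb-like gene Scml4 were left with 29.7%, 31.5% and 32.1%. Aff3 varied most of the 5 with butyrate, with 114, 161 and 38 counts against 385, 369 and 300 in control.

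Of the metabolic and transport members, Abcb1b, a P-glycoprotein efflux pump, was left with 28.0% of its control sum, and its paralog Abcb1a, a neighbour on chromosome 5, was lower by a log2 fold change of -1.48 (adjusted p = 0.000413). Slc14a1, a urea transporter, Fads2, a fatty acid desaturase, and Tbc1d4, a regulator of glucose transporter traffic, were left with 20.9%, 22.1% and 26.3%. Ctse, which encodes cathepsin E, the adaptor gene Ap4s1 and Lxn, an inhibitor of carboxypeptidases, were left with 27.0%, 27.8% and 28.3%. Of 22 tested genes of cholesterol metabolism outside the set, 17 were lower and 0 higher, with a median log2 fold change of -0.46. Insig1, a sterol sensor, was lower by a log2 fold change of -1.19 (edgeR adjusted p = 0.000251).

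Atp5md, a small subunit of the mitochondrial ATP synthase, had 8, 21 and 10 counts with butyrate, against 104, 10 and 168 in control. The second control library lay below the second butyrate library and the groups overlap. Atp5md averaged 2.31 ± 1.14 CPM with butyrate and 15.9 ± 12.9 CPM in control. Its log2 fold change was -2.77 (SE 0.795) with all libraries and -2.13 without control replicate 3. It was not called lower in that fit (edgeR adjusted p = 0.0665), nor without butyrate replicate 1 (0.0561) or 3 (0.0599), nor by limma voom (0.185).

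Genes of less known function followed. Samd3 had 2, 9 and 11 counts with butyrate, against 36, 41 and 81 in control, so its fold rests on few reads. Ccdc125 had 14, 22 and 16 counts with butyrate and 67, 65 and 56 in control. Parp8 had 53, 33 and 19 counts with butyrate, against 127, 107 and 119 in control. Parp8 and Parp12 were the 2 members among 14 tested genes of the PARP family of ADP-ribosyltransferases, of which 8 of the other 12 were lower and Parp1, which acts in DNA repair, was the 1 higher gene (log2 fold change 0.72, edgeR adjusted p = 0.00139). The calcium sensor gene Ncald, Tmem71, Prx, Efcab11 and Trim65 were left with 22.97%, 25.9%, 30.2%, 31.3% and 32.0%.

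The noncoding RNA 9630013D21Rik had 6, 7 and 4 counts with butyrate, against 77, 57 and 80 in control, a log2 fold change of -3.58 (SE 0.265). It lies next to Cdkn2c on chromosome 4 (109652427 to 109657588, against 109660876 to 109666756 for Cdkn2c). Cdkn2c kept 32.7% of its control sum and its neighbour 7.94%. Gm20559 had 336, 327 and 180 counts with butyrate and 1031, 915 and 993 in control, and C030034L19Rik was left with 24.04%. The unnamed gene numbers 100504266, 100861953 and 240921 were left with 7.04%, 15.2% and 18.1%, and A430078G23Rik with 26.4%.

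**Figure D3:**
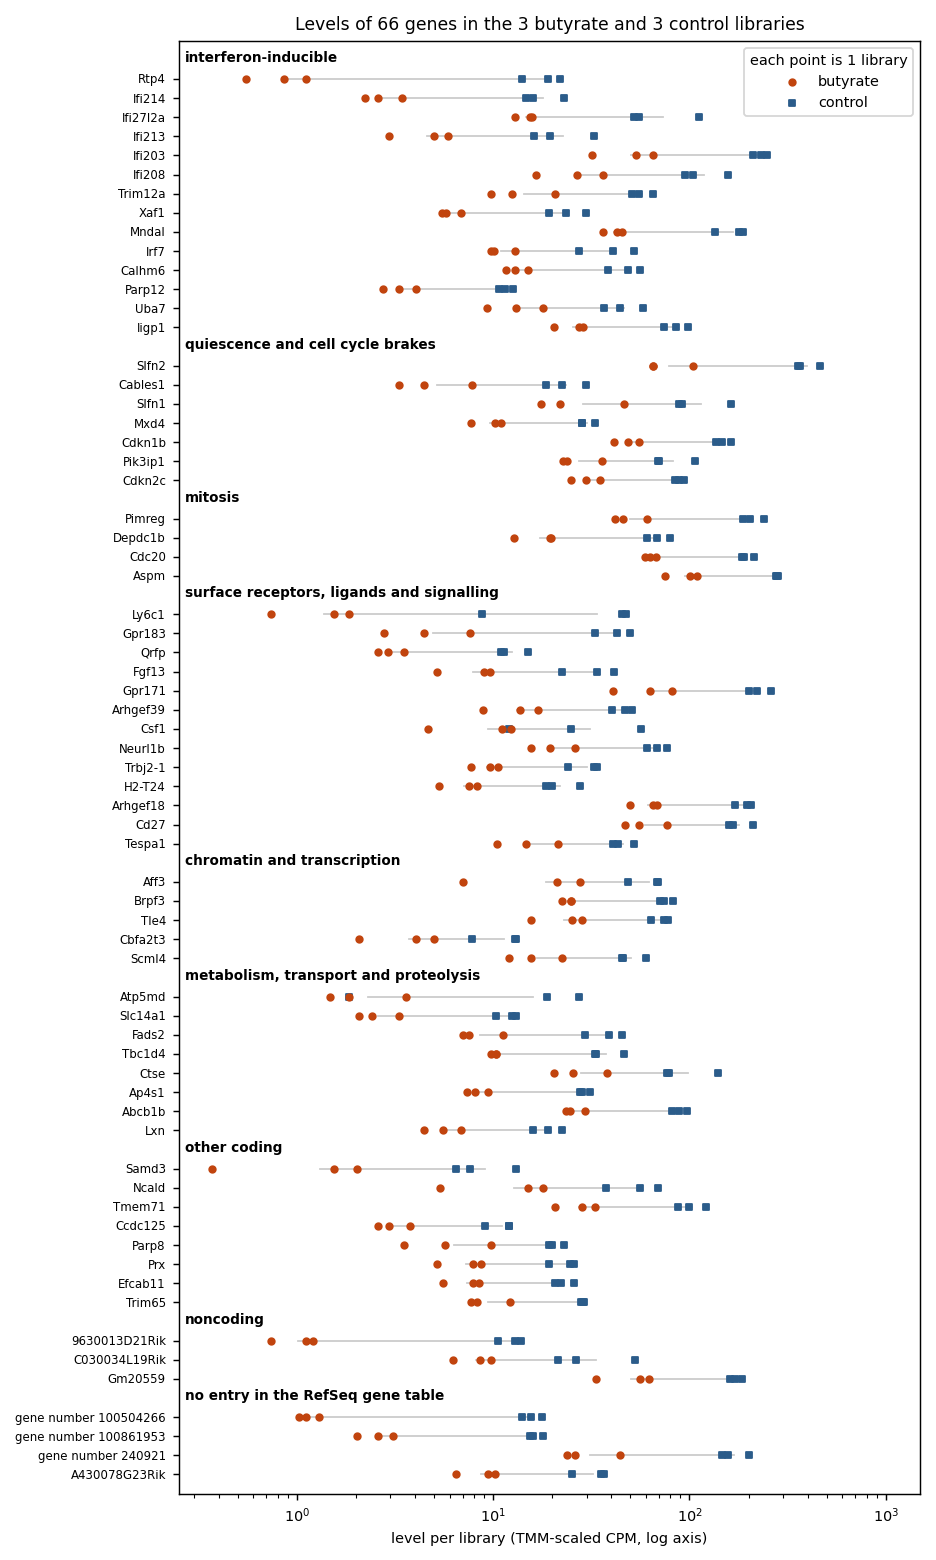
Level of 66 of the 67 members in every library (TMM-scaled CPM, log axis), grouped by known function and ordered by the ratio of the sums within a group. Butyrate libraries are circles, control libraries are squares and grey lines join the means. The groups overlap for Atp5md and Csf1 and are apart for the other members.

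By position, 63 members had coordinates. Chromosome 1 held 8 of them, or 1.52% of its 525 genes with a control sum of 150 or more, beside 0.678% over all chromosomes. The next highest shares were 1.32% on chromosome 18 with 3 members and 1.12% on chromosome 6 with 5, and chromosome 11, with 6 members, was near the share of all at 0.743% of 807. Chromosome 2, with 726 such genes, held 1. Another member lay within 200 kb of 9 members, which were the 5 Ifi200 genes, Slfn1 with Slfn2, and Cdkn2c with 9630013D21Rik. Within 100 kb of a member lay 307 other genes, of which 184 were tested. Of these, 60 (32.6%) were lower and 36 higher, beside 22.5% and 23.5% of all genes tested, and their median log2 fold change was -0.13. For 20 members the annotation overlaps another gene of the table, and since the strand setting of the counting is not given, reads of such pairs cannot be told apart. Median gene length was 23168 bases for the 63 members and 21919 bases for all genes with a control sum of 150 or more. Of the members with an entry, 93.7% were protein coding, against 96.6% of that background.

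The spread between replicates comes from the counts that chose the members, so it is a description and nothing is read from its distance to other genes. The members' median coefficient of variation was 25.2% with butyrate and 16.4% in control, beside 9.34% and 7.91% for all genes with a control sum of 150 or more. It was above 50% in control for Ly6c1, Atp5md (81.1%) and Csf1. The lowest of the 3 butyrate libraries was replicate 3 for 38 members (56.7%), and the highest was replicate 1 for 40 (59.7%), beside 37.2% and 38.9% of the background genes. Among the control libraries, replicate 1 was the highest for 45 members (67.2%), beside 36.5% of the background, and replicate 3 was the lowest for 31 (46.3%), beside 35.4%. The median log2 ratio of butyrate to control was -1.89, -1.87 and -1.98 in the replicates numbered 1, 2 and 3. The ratio was below 1 in every pair for 66 members, and the exception was Atp5md in the second.

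Since the choice used all 6 libraries, it was repeated on 4 of them, with a control sum of 100 or more, and the ratio was read in the pair left out. Without replicate 1 the rule chose 88 genes, and in replicate 1 their median ratio was 0.318, with 50 of them (56.8%) at 1/3 or less. Without replicate 2 it chose 100, with a median of 0.336 in replicate 2 and 49 (49.0%) at 1/3 or less. Without replicate 3 it chose 52, with a median of 0.251 in replicate 3 and 40 (76.9%) at 1/3 or less. Among genes not chosen, 0.215%, 0.204% and 0.582% were at 1/3 or less in the same pairs. In the pairs left out, the median ratio of the chosen genes was thus again below 1, and 49.0% to 76.9% of them met the limit of 1/3. These genes were chosen anew in each split and are not the same set as the members. The labels do not tie the replicates to separate mice or cultures, so a left-out pair may not be independent of the others. The ratios are therefore a description and lend the members no separate support.

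Chosen genes that were not lower in the left-out pair were few, and their ratios were large. Of the 88 genes, 87 had a ratio below 1 in replicate 1, and the other was Tmem258, at 7.83. Of the 100 genes, 99 were below 1 in replicate 2, and the other was Atp5md, at 1.96. All 52 were below 1 in replicate 3. With 1 library per group in each left-out pair, there is no test of these ratios.

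**Figure D4:**
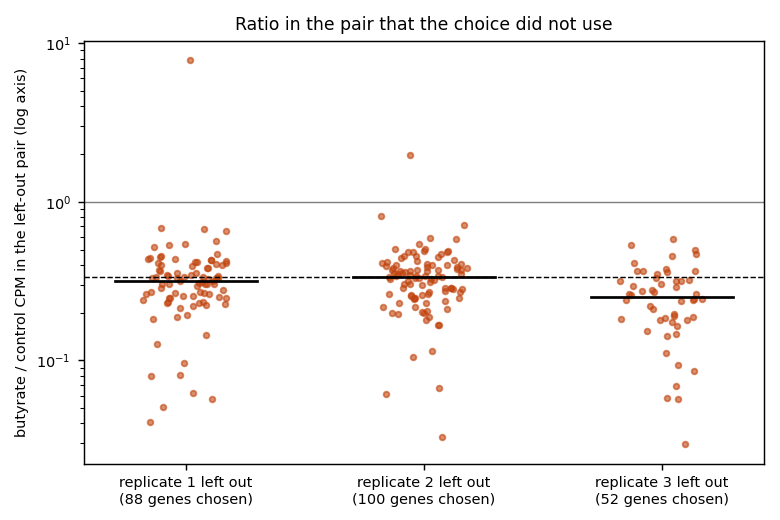
Ratio of butyrate to control CPM (log axis) in the replicate pair that the choice did not use, for the 88, 100 and 52 genes chosen from the other pairs. CPM here are scaled to library totals without TMM. Each point is 1 gene, thick lines are medians (0.318, 0.336 and 0.251), the dashed line is at 1/3 and the grey line at 1, and 1 gene each lies above 1 without replicate 1 and without replicate 2.

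Several lists held no member. Members were absent from lists of cytotoxic granule genes (21 tested, 4 lower and 8 higher), killer lectin-like receptors (12 tested, 1 lower and 4 higher), replication-dependent histones (17 tested, 0 lower and 15 higher), GIMAP GTPases (8 tested, 4 lower and 1 higher) and T cell transcription factors (51 tested, 13 lower and 17 higher). Higher killer lectin-like receptors numbered 1 without butyrate replicate 2 or control replicate 1, and 2 without butyrate replicate 3 or control replicate 2 or 3, with no filter or by DESeq2. Lower ones numbered 2 without butyrate replicate 1 or control replicate 1, and 3 with the replicate number as a block. Upper quartile scaling moved the share of higher genes among all calls to 61.8%, against 51.1% with TMM, and shifted the median log2 fold change of all genes to 0.09.

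**Figure D5:**
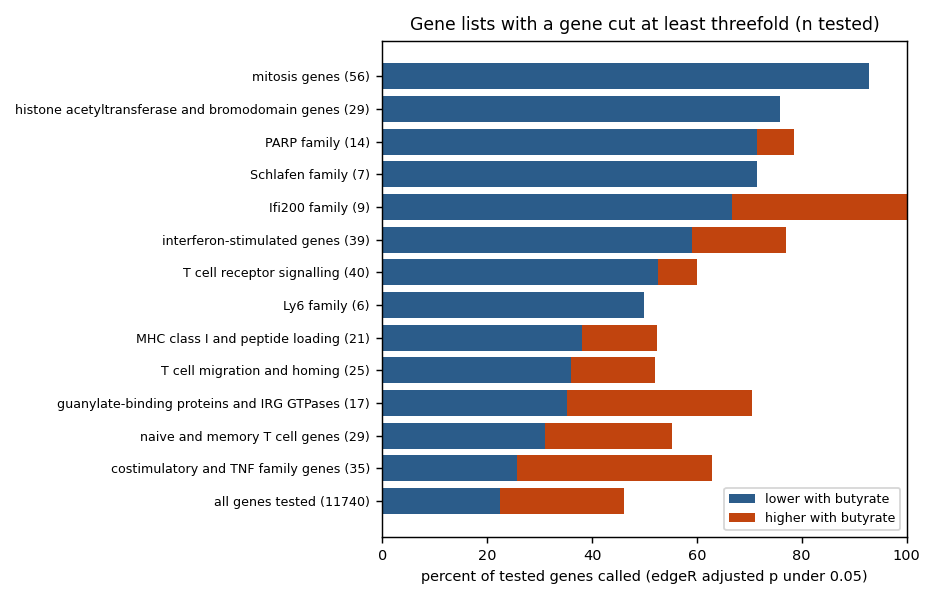
Percent of the tested genes on each list that edgeR called lower (blue) or higher (red) with butyrate, for lists that hold at least 1 of the members named, with the number tested in brackets. Mitosis genes were lower in 52 of 56 and the 9 Ifi200 genes split 6 lower and 3 higher, while the bottom bar shows all 11740 genes tested (22.5% lower and 23.5% higher).

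Genes listed for CD8+ T cells, some of which other T cells share, were present in all libraries. Over 8 genes the summed level was 5341 to 6520 CPM with butyrate and 5811 to 6100 CPM in control. The largest were Trac (2552 and 2063 CPM) and Thy1 (1757 and 2023 CPM), which are not confined to CD8+ T cells. Cd8a averaged 436 CPM with butyrate and 454 CPM in control, and Cd8b1 253 and 265 CPM, and neither was called. Of the 8 genes, 0 were higher and 1 lower, namely Cd3e (206 and 314 CPM, edgeR adjusted p = 0.000816). No member is on a marker list of another cell type. Macrophage and dendritic cell markers summed to 150 to 160 CPM with butyrate and 43.4 to 95.4 CPM in control (4 of 7 tested higher, Siglech at 0). Plasma cell markers summed to 554 to 700 CPM with butyrate and 293 to 345 CPM in control (3 of 4 tested higher, Tnfrsf17 at 0). Xbp1 (425 and 273 CPM) and Prdm1 (179 and 34.4 CPM) made up nearly all of that sum, and Jchain was not called (9.27 and 10.1 CPM, edgeR adjusted p = 0.833). CD4 T cell markers summed to 121 to 130 CPM with butyrate and 74.0 to 83.2 CPM in control (2 of 3 tested higher), nearly all of it Zbtb7b (117 and 69.8 CPM), while Cd4 itself averaged 4.63 and 0.609 CPM. B cell markers summed to 16.3 to 24.8 CPM with butyrate and 15.95 to 22.4 CPM in control, and 10 of the 12 were too low to test (1 of 2 tested higher, Pax5 at 0). NK cell markers summed to 16.6 to 22.9 CPM with butyrate and 5.58 to 8.92 CPM in control (3 of 3 tested higher), granulocyte and mast cell markers to 27.0 to 56.7 and 11.1 to 24.8 CPM (3 of 5 tested higher), and erythroid and platelet markers to 9.97 to 82.2 and 1.48 to 7.62 CPM (2 of 3 tested higher). Apart from Cd3e, no marker tested was called lower. The part of other cells in the members' values was not tested.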

How the data were processed

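RNA was measured in 3 butyrate and 3 control libraries of activated gBT-I CD8+ T cells. Raw read counts were deposited in 1 table, with gene numbers in rows and a column per library that the labels name. Per the submitters' processing notes the build was mm10 and the tools were edgeR, featureCounts with Subread, Picard, TopHat and CASAVA. No source used here gives their versions, roles, settings or the strand setting. Of 27179 gene numbers, 25275 were named from RefSeq (GRCm38.p6), 18 from GENCODE and 1886 stayed unnamed, with 0.961% to 1.20% of a library's counts. Library totals were 5383380 to 6244350 counts, so 3 counts, the limit that a count of 0 allows, equal 0.480 to 0.557 CPM. Such limits cover counting error only.

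Members were found on raw sums, and the comparison was fitted with edgeR 4.0.16 in R 4.3.3 (quasi-likelihood F test, TMM, filterByExpr, Benjamini-Hochberg over all 11740 genes). The adjusted p threshold was 0.05, and SE is the size of the log2 fold change over the square root of the F statistic. The procedure was also run on simulated counts, with independent libraries and few changed genes. These data differ from that setting in both respects, so nothing is read from that run. DESeq2 1.42.0, limma voom (limma 3.58.1), other scalings, no filter, a replicate block and each library left out were alternatives.

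After subtraction of group means, libraries with the same replicate number correlated at 0.362, 0.197 and 0.353 over genes, and those with different numbers at -0.301 to -0.0746. The numbers were therefore taken to pair the libraries in the ratios by replicate and in the replicate block. The main fit held no replicate term and ignores this pairing. It gave the p-values and SEs wherever no other fit is named. Replicate libraries were checked against counting noise and exceeded it (chi-square of 5.43 to 10.6 per degree of freedom).

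The members, the 20 gene lists (551 of 552 entries matched, or 549 with each gene once per list, since Mnda and Pyhin1 are older names of Ifi211 and Ifi209; Ifi206 was not matched) and the rule for named genes were chosen with earlier results of these data known. The rule took the 10 lowest ratios, the 10 largest control sums, up to 3 members per list, members within 200 kb of each other and those at the limits. Other genes were named after their values were seen. Of the planned motifs, only the 2 of interferon signalling are reported in the text, though the others rest on the same 45 entries. Some of the others also differed from the background. The AP-1 site stood in 36.4% of the interferon-inducible members with an entry, the GC box in 9.09% and the CCAAT box in 36.4%. Among genes with a control sum of 150 or more, the shares were 5.40%, 71.0% and 43.5%. Promoter entries matched too few members to read anything from these shares. The values of 1 member are not reported here.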

Additional observations from a re-analysis of the deposited data

How the results depend on the processing

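The rule found 381 genes at a ratio of at most 1/2 and 28 at 1/4. Over the other settings (scaled sums, other control sums, and single libraries or replicate numbers left out) it found 52 to 100 genes, of which 62 were from library-scaled and 63 from TMM-scaled sums. The median log2 fold change of the members was -1.76 with upper quartile scaling and -1.94 to -1.72 with 1 library left out. No member's log2 fold change changed sign in 13 alternatives. Atp5md and Csf1 were the members that lost a call, and 65 to 67 members were called in each alternative. Serpinb6a, no member and not called, ranged over -0.33 to 0.063 with 1 library left out, turning sign without butyrate replicate 2 (0.0631), and the cause was not tested. Without a library the fold of Csf1 moved by 1.68 times (control replicate 1) and that of Atp5md by 1.56 times (control replicate 3). Ripk1 was also called lower with no filter (adjusted p = 0.0387), without butyrate replicate 1 (0.0329) and by limma voom (0.049). The replicate block (pairing by number) called 3095 genes lower and 3220 higher, against 2637 and 2756, and 67 members; beside the changes given in the text, it moved the killer lectin-like receptors called lower to 3 in place of 1 and changed no other call named. All 5 Ifi200 members had a promoter entry with the core also in the 150 bases that end 50 bases after the start. Depth limits Ly6c1, Rtp4, Samd3, 9630013D21Rik and gene number 100504266, which had 2 to 11 counts in each butyrate library.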
